A study of Homo sapiens with 6 samples.

Results

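The genes described here are 10 cyclins and cyclin-dependent kinases (CDKs) of the G1/S and G2/M transitions: CCND1, CCND2, CCND3, CCNE1, CCNE2, CCNA2, CCNB1, CDK2, CDK4 and CDK6. They were taken by exact gene symbol from the 32029 genes listed in the deposited tables, and were chosen with earlier results of these data known. Each symbol matched 1 row, and all 10 were among the 14996 genes with enough reads to be tested. RNA came from SW480, an established line from a human colorectal adenocarcinoma. The 6 cultures form 2 groups: the 3 siControl cultures, labelled WT and siNC, received a control siRNA, and the 3 siZEB1 cultures, labelled ZEB1 knockdown, received siRNA against ZEB1, a zinc-finger transcription factor of the epithelial-mesenchymal transition. Total RNA of both groups was collected 48 h after transfection and sequenced, and the comparison asks which transcripts differ once ZEB1 is silenced. The design holds 1 cell line and a transient knockdown at 1 time point.

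Cyclins are the regulatory subunits of CDKs, and a CDK has little activity without one. D-type cyclins bind CDK4 and CDK6 and start the phosphorylation of the retinoblastoma protein in response to growth signals. E-type cyclins with CDK2 complete that step and carry cells into S phase, cyclin A2 serves S phase and the entry to mitosis, and cyclin B1 with CDK1 drives mitosis itself. In colorectal cancer cells the D-type cyclin genes are known for their response to Wnt and growth factor signalling.

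Total counts ranged from 19040636 to 22357633 per culture. ZEB1 itself was at 58.6, 57.0 and 47.1 CPM (read counts relative to the TMM-scaled library total) in the siControl cultures and at 7.20, 6.87 and 8.46 CPM in the siZEB1 cultures, so the knockdown was seen in each. Its log2 fold change was -2.85 ± 0.11 (SE), with an adjusted p of 4.85e-12. The keratins KRT8 and KRT18 marked all cultures as epithelial, with KRT8 at 3455 ± 160 CPM in siControl and 3534 ± 200 CPM in siZEB1 (mean ± SD, n = 3). Of 10 colorectal epithelial markers, 7 were tested. EPCAM rose 8.29-fold, VIL1 5.07-fold and KRT19 3.08-fold, CDX2 fell by 59.3%, and KRT8, KRT18 and KRT20 were not called. The 9 markers in the tables summed to 4814 to 5438 CPM in siControl and 5329 to 6002 CPM in siZEB1. That sum is mostly KRT8 and KRT18, so it says little about the other markers. LGALS4 and CDH17 were below the filter, and CDX1 was not in the tables used here. Of 13 markers of leukocytes, endothelium and fibroblasts, 5 were tested and 1 passed the test, PDGFRB, with a log2 fold change of 0.42. PTPRC and DCN were not in the tables used here. The other 11 summed to 16.1 to 18.7 CPM in siControl and 16.2 to 18.1 CPM in siZEB1. COL1A1 was the highest of them, at a mean of 10.2 CPM in siControl and 8.70 CPM in siZEB1. PDGFRB was at 3.98 and 5.33 CPM, while CD3E, CD68 and LUM had between 0 and 3 reads in every culture. The part of these marker differences in the results given next was not tested.

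In siZEB1 cultures, 4 of the 10 genes fell, namely CCNE1, CCND1, CCND3 and CCND2, and 2 rose, namely CDK6 and CDK2. CCNE2, CCNA2, CCNB1 and CDK4 did not pass the test. A gene was called when its Benjamini-Hochberg adjusted p in edgeR's quasi-likelihood test was under 0.05. By that measure 6 of the 10 were called, beside 40.2% of all genes tested. The 4 that fell stand beside 21.2% of all genes, and the 2 that rose beside 19%. The median log2 fold change was -0.07 over the 10 genes and -0.24 over the 7 cyclins, against -0.0055 over all genes tested. The values of the 3 cultures of each group did not overlap for 6 of the 10, which is close to the 49.5% seen over all genes. With a threshold of 1.5-fold and an unadjusted p under 0.05, met by 16.6% of all genes, CCNE1 alone of the 10 passed. Because these are bulk cultures, fewer cells in a given phase of the cycle and less RNA per cell cannot be told apart.

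**Figure D1:**
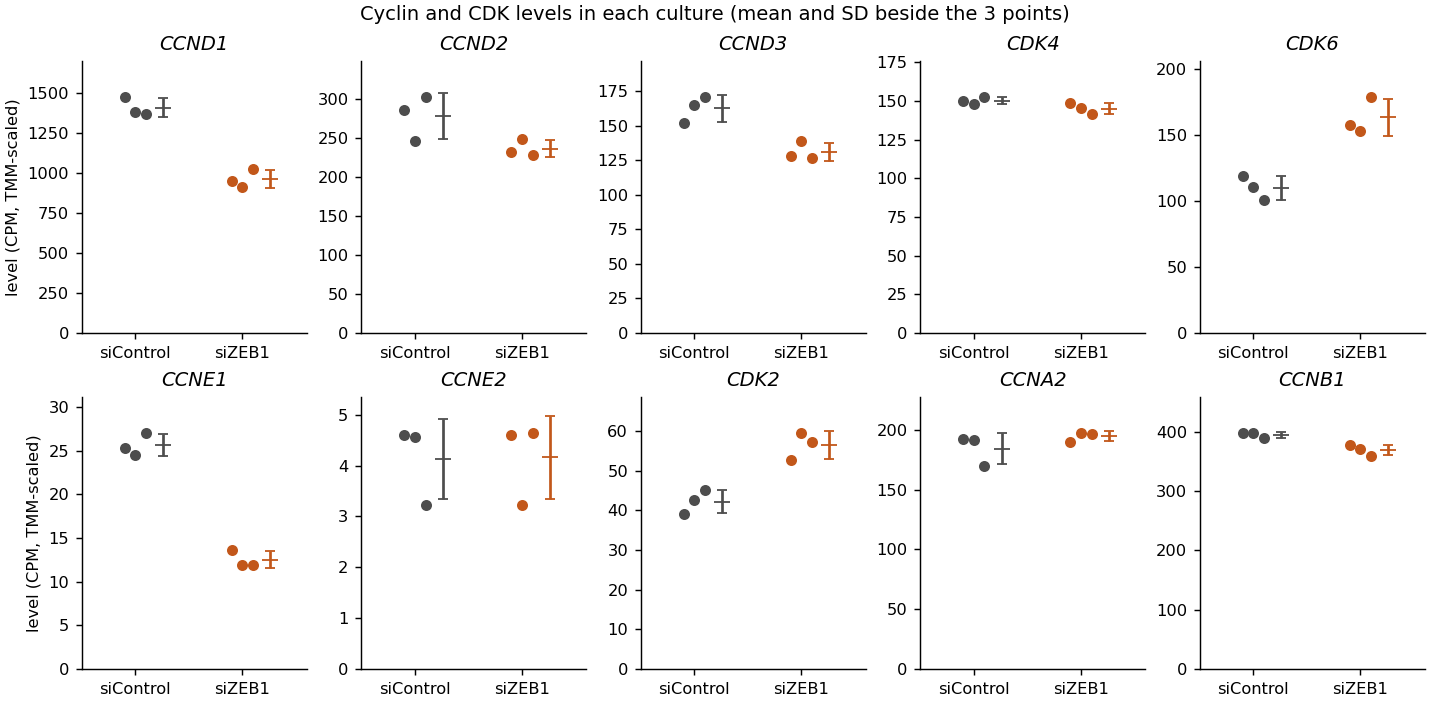
Level of each of the 10 genes in every culture, in TMM-scaled CPM on axes that start at 0. Dots are cultures 1 to 3 of each group from left to right, and the bar beside them is the mean with its SD (n = 3). CCND1, CCND3, CCNE1 and CCNB1 lie lower in all siZEB1 cultures, CDK2 and CDK6 lie higher, and the CCNE2 values cover the same range in both groups.

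**Figure D2:**
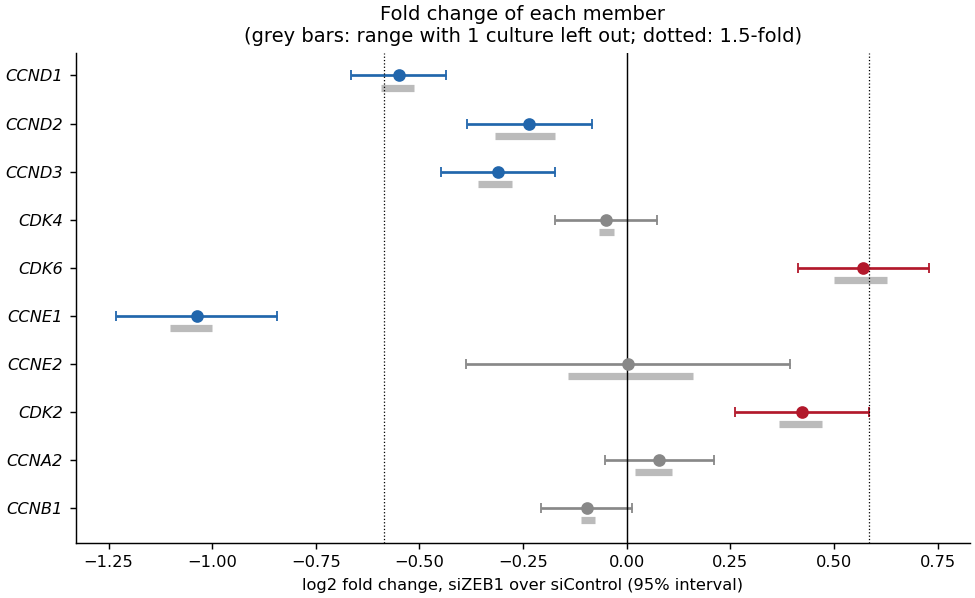
Log2 fold change of siZEB1 over siControl for each gene, with its 95% interval, in blue where the gene fell, red where it rose and grey where it was not called. The pale bar under each point is the range of the estimate when 1 culture is left out, and the dotted lines mark 1.5-fold. The CCNE1 interval lies wholly beyond the 1.5-fold line, from -1.23 to -0.84.

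All 3 D-type cyclins fell, with the largest fitted change at CCND1, the most abundant of them. CCND1, which encodes cyclin D1 and lies on chromosome 11 (69641087 to 69654474, plus strand, GRCh38), was at 1475, 1378 and 1365 CPM in the siControl cultures and at 949, 913 and 1021 CPM in the siZEB1 cultures. Every siZEB1 culture was below every siControl culture by a gap wider than the range within either group. The level fell by 31.7% (95% interval -36.9% to -26%), a log2 fold change of -0.55 ± 0.05 (SE) with an adjusted p of 4.83e-07. CCND3, the D-type cyclin known best from blood and muscle cells (chromosome 6, 41934933 to 42050357, minus strand), was at 152, 165 and 171 CPM in siControl and at 128, 139 and 126 CPM in siZEB1. The groups did not overlap here either. CCND3 fell by 19.4% (95% interval -26.7% to -11.3%), with a log2 fold change of -0.31 ± 0.07 and an adjusted p of 0.00103.

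CCND2 (chromosome 12, 4273772 to 4305350, plus strand) encodes the third D-type cyclin and gave the least firm of the 6 calls. Its levels were 286, 246 and 303 CPM in siControl and 232, 249 and 228 CPM in siZEB1. The groups overlapped, since siControl culture 2 was below siZEB1 culture 2. The fitted decrease was 15.1% in size (log2 fold change -0.24 ± 0.07, adjusted p = 0.0138). The call was lost without siZEB1 replicate 1, where the log2 fold change was -0.22 with an adjusted p of 0.0662. Another protein-coding gene model, AC008012.1, which was not among the listed genes, shares 13.8% of the exonic bases of CCND2 on the same strand, so reads could be split between them.

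Of the kinases that the D-type cyclins activate, CDK6 rose and CDK4 was not called. CDK6 (chromosome 7, 92604921 to 92836594, minus strand) was at 119, 111 and 101 CPM in siControl and at 158, 154 and 179 CPM in siZEB1. All siZEB1 cultures were higher than all siControl cultures. CDK6 rose by 48.5% (95% interval 33.1% to 65.8%), with a log2 fold change of 0.57 ± 0.08 and an adjusted p of 1.19e-05, just short of 1.5-fold. CDK4 (chromosome 12, 57747727 to 57756013, minus strand), the other kinase of cyclin D, was at 150, 148 and 153 CPM in siControl and at 149, 145 and 141 CPM in siZEB1. These ranges overlapped and the difference of -3.45% did not pass the test (adjusted p = 0.519), with a 95% interval from -11.3% to 5.10%. The CDK4 exons share 43.2% of their bases with TSPAN31 on the opposite strand, and no strand setting of the counting is given in the sources used here, so part of these reads may belong to TSPAN31.

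Sums over a family describe the transcript level for each side of the cyclin D complexes, with no test. Protein is not part of these data. On a scale of CPM per kb of exon, which allows genes of different length to be added, the D-type cyclins summed to 358 ± 12.3 in siControl and 255 ± 9.07 in siZEB1 (mean ± SD, n = 3), a change of -28.9%. CCND1 made up 81.3 ± 1.39% of that sum in siControl and 78.1 ± 1.71% in siZEB1. CDK4 and CDK6 summed to 56.4 ± 0.656 CPM per kb in siControl and 59.2 ± 0.709 in siZEB1, a change of 4.91%. Within that sum the share of CDK6 was 15.9 ± 1.22% in siControl and 22.5 ± 1.88% in siZEB1.

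**Figure D3:**
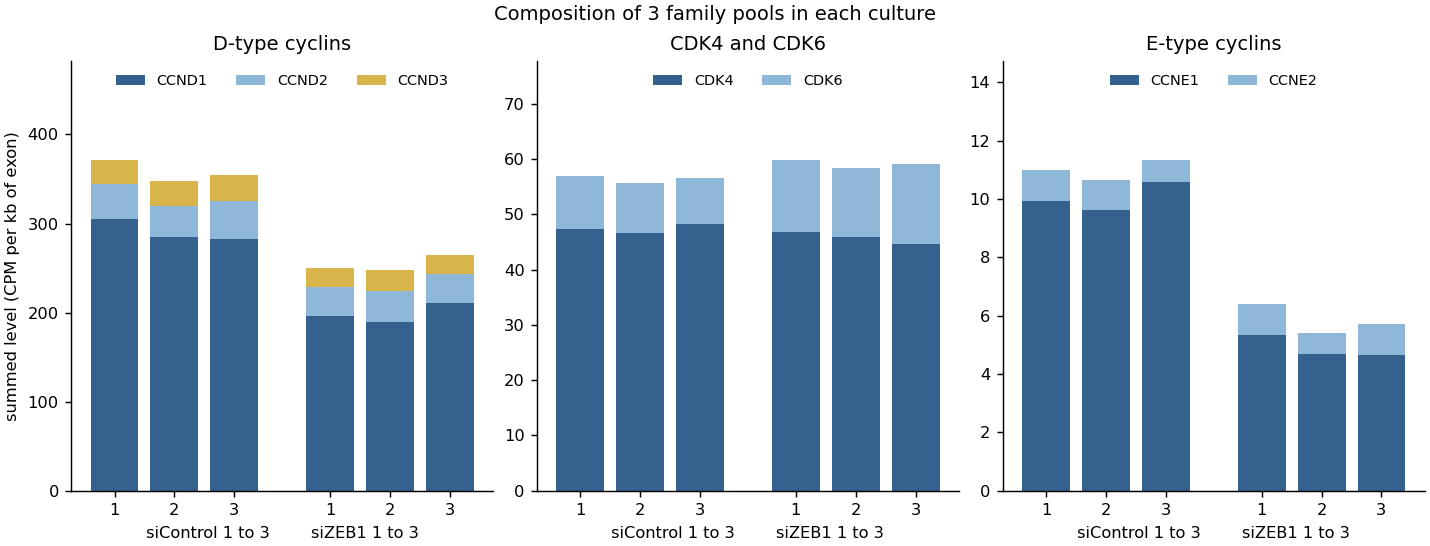
Summed level of the D-type cyclins, of CDK4 with CDK6 and of the E-type cyclins in each culture, as stacked bars in CPM per kb of exon from 0. The D-type sum is lower in each siZEB1 culture and mostly CCND1 throughout, the CDK4 and CDK6 sum is at 56.4 and 59.2 on average with a larger CDK6 part in siZEB1, and the loss in the E-type sum lies in its CCNE1 part.

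CCNE1 had the largest change of the 10 genes, while its paralog CCNE2 showed none that could be measured at its depth. CCNE1 encodes cyclin E1, the partner that activates CDK2 at the G1/S boundary, and lies on chromosome 19 (29811898 to 29824308, plus strand). It was counted with 539, 550 and 522 reads in siControl and with 257, 230 and 228 reads in siZEB1, which is 25.3, 24.6 and 27.1 CPM against 13.6, 12.0 and 11.9 CPM. The lowest siControl culture was well above the highest siZEB1 culture. CCNE1 fell by 51.3% (95% interval -57.4% to -44.3%), with a log2 fold change of -1.04 ± 0.09 and an adjusted p of 1.37e-07. Only 2.9% of all genes tested had a more negative fold change.

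CCNE2 (chromosome 8, 94879770 to 94896678, minus strand) encodes cyclin E2 and was the weakest of the 10 transcripts, with 98, 102 and 62 reads in siControl and 87, 62 and 89 reads in siZEB1. The cultures of both groups spread over the same range, from 3.22 to 4.61 CPM in siControl and from 3.22 to 4.65 CPM in siZEB1. Its log2 fold change was 0.00 ± 0.19 (adjusted p = 0.988), and the 95% interval, from -23.5% to 31.5%, does not reach the change of CCNE1. INTS8 overlaps 37.0% of the CCNE2 exonic bases on the opposite strand, so these counts are uncertain as well. The sum of both E-type cyclins was 11 ± 0.351 CPM per kb in siControl and 5.85 ± 0.495 in siZEB1, and the share of CCNE1 in it was 91.5 ± 1.85% and 83.9 ± 2.51%.

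CDK2, the kinase of cyclins E and A (chromosome 12, 55966769 to 55972784, plus strand), rose while CCNE1 fell. It was at 39.1, 42.5 and 45.1 CPM in siControl and at 52.7, 59.6 and 57.3 CPM in siZEB1, with no overlap between the groups. The rise was 34% (95% interval 19.7% to 49.9%), a log2 fold change of 0.42 ± 0.08 with an adjusted p of 3.00e-04. Opposite-strand models share 16.8% of the CDK2 exonic bases, most of it with AC025162.1 (14.5%), which was not among the listed genes, and 2.3% with PMEL. LTO1 shares 10.3% of the CCND1 exonic bases on the opposite strand, and EXOSC9 shares 9.1% of those of CCNA2.

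CCNA2 and CCNB1 differed little between the groups, whereas some other mitotic cyclins, given below, were called. CCNA2, cyclin A2 (chromosome 4, 121816444 to 121823933, minus strand), was at 192, 191 and 170 CPM in siControl and at 190, 198 and 197 CPM in siZEB1. The third siControl culture was the low one and the rest overlapped. The difference of 5.62% was not called (adjusted p = 0.338), with a 95% interval from -3.60% to 15.7%. CCNB1, cyclin B1 (chromosome 5, 69167010 to 69178245, plus strand), was at 399, 398 and 389 CPM in siControl and at 377, 371 and 360 CPM in siZEB1. All siZEB1 cultures were below all siControl cultures, yet the difference of -6.49% did not pass the test (adjusted p = 0.149), and its 95% interval ran from -13.3% to 0.873%. Neither interval reaches the fitted decrease of CCND1 or CCNE1.

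**Figure D4:**
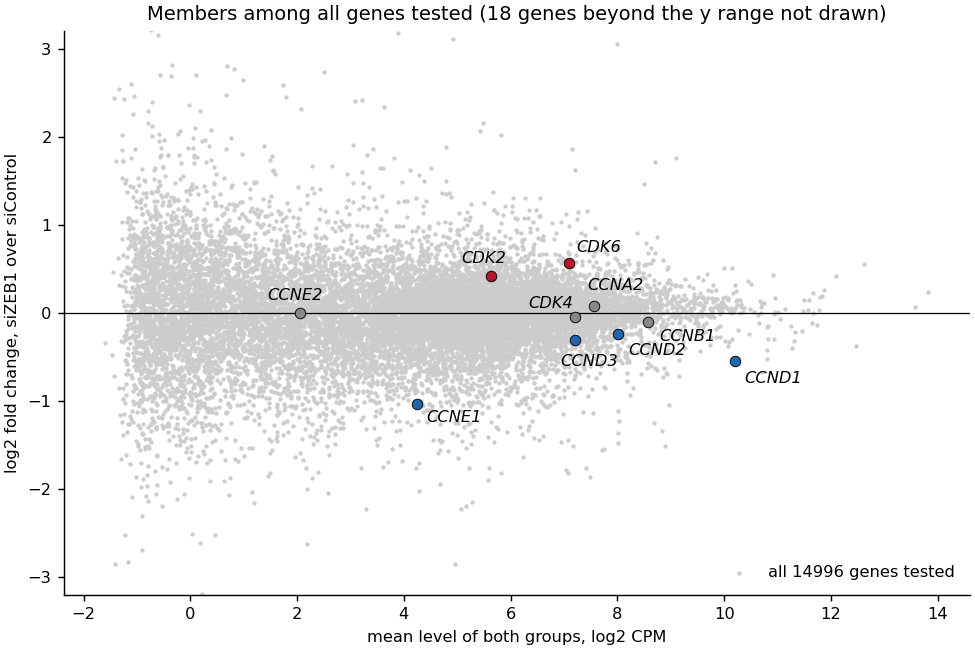
Log2 fold change of siZEB1 over siControl against the mean level in log2 CPM for the 14996 genes tested (grey), with the 10 cyclins and CDKs drawn larger and coloured as called lower (blue), called higher (red) or not called (grey). CCND1 is the most abundant of the 10 and CCNE1 the one farthest from 0, and 18 genes beyond the vertical range are not drawn.

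Paralogs were also compared within each culture, which removes the scaling between libraries. Log2 ratios of 7 pairs were tested between the groups with a two-sided exact permutation test over cultures, whose smallest possible p at 3 against 3 is 0.1, so none could pass a threshold of 0.05. CDK4 was 5.29 times CDK6 in siControl and 3.44 times in siZEB1 (per kb of exon, geometric means), with a difference in log2 ratio of -0.62, an exact p of 0.1 and an adjusted p of 0.14 over the 7 ratios. CCNE1 was 10.9 times CCNE2 in siControl and 5.24 times in siZEB1, and CCND1 was 7.51 times CCND2 in siControl and 6.02 times in siZEB1. The ratio of CDK2 to CDK4 was 0.228 in siControl and 0.317 in siZEB1, and that of CCNA2 to CCNB1 was 0.426 and 0.482. In each of these 5 pairs the groups did not overlap, with the same smallest exact p of 0.1. The ratios of CCND1 to CCND3 (exact p = 0.2) and of CCND2 to CCND3 (exact p = 0.7) overlapped between the groups.

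Per kb of exon, the order of the levels in siControl was CCND1 at 291 CPM per kb, CCNB1 at 154, CCNA2 at 65.9, CDK4 at 47.4, CCND2 at 38.9, CCND3 at 28.0, CDK2 at 10.8, CCNE1 at 10.1, CDK6 at 8.98 and CCNE2 at 0.939. Neighbours in this order did not overlap between cultures, except that CCNE1 overlapped CDK2 above it and CDK6 below it. In siZEB1 the order was kept down to CDK2, at 14.5 CPM per kb. CDK6 then stood above CCNE1, at 13.3 against 4.90 CPM per kb, with CCNE2 last at 0.946. These levels use the length of all exons of a gene in GENCODE, so a gene whose short isoform dominates in these cells is placed too low.

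The ZEB1 protein binds E-boxes of the form CACCTG, so the promoter windows of the 10 genes in RefSeq (GRCh38.p14, 250 bases before to 50 after the start) were searched for these letters on both strands, together with the letters of 4 other elements. The table holds windows for 6 of the 10 genes, and CCND1, CCND2, CCNE2 and CDK2 have no entry in it. CACCTG or its complement CAGGTG was in 20.6% of all 35116 windows. Among the genes here it was found once in the first of the CCND3 windows, which belongs to a gene that fell, and once in that of CCNB1, which was not called. Positions count from the RefSeq start, which for CCND3, CCNB1 and CCNA2 lies inside the GENCODE gene span given above. A match before that start can therefore lie within the annotated gene, as that of CCND3 does. Both stretches are printed with the E-box in capitals. That of CCND3 is chr6:42048909-42048936 on the minus strand (position -237), and that of CCNB1 is chr5:69166900-69166924 on the plus strand (position -242).
CCND3: cccgccgcccaCACCTGagcctccgtgg
CCNB1: ctgctctcCAGGTGgccgctgcagc

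The window of CCNE1, the gene that fell most, held no E-box of this form, and neither did those of CCNA2, CDK4 and CDK6. It held 7 GC boxes (GGGCGG or its complement CCGCCC, letters found in 45.0% of all windows), and its part before the annotated gene, chr19:29811741-29811897 on the plus strand, is printed because it shows 5 of these 7 in capitals within 157 bases that are 83.4% G or C.
CCNE1: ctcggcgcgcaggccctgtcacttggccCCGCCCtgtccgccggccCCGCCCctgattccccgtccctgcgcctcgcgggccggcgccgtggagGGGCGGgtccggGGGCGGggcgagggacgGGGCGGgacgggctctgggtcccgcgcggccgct

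CCAAT is bound by NF-Y in many mitotic genes, and it or its complement ATTGG was in 34.6% of all windows. It occurred 2 times before the RefSeq start of CCNB1, 1 time before that of CCNA2 and also in the other CCND3 windows. The CCNB1 pair and the CCNA2 match lie within 90 bases of the RefSeq start, at chr5:69167150 and chr4:121823883. By the GENCODE span the CCNB1 pair lies inside the annotated gene. They are printed with these letters in capitals, at chr5:69167052-69167078 and chr5:69167084-69167110 on the plus strand and at chr4:121823924-121823950 on the minus strand.
CCNB1 distal: accggcagccgCCAATgggaagggagt
CCNB1 proximal: ccacgaacaggCCAATaaggagggagc
CCNA2: cgagcgctttcATTGGtccatttcaat
No window of the 6 genes held the CHR letters TTTGAA (15.2% of all windows) or an E2F site spelled TTTCCCGC, TTTCGCGC, TTTGCCGC or TTTGGCGC (3.3% of all windows). A match of this kind describes the letters of the window and no binding was measured here.

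The rest of the cell-cycle machinery was described with 9 lists of 127 genes, of which 124 were tested. In siZEB1, 35 of these rose and 19 fell, so that 43.5% were called beside the 40.2% of all genes, and their median log2 fold change was 0.06. At 1.5-fold and an unadjusted p under 0.05, met by 16.6% of all genes, the balance turned, with 8 of these 124 lower and 3 higher. Over all genes that rule called 1402 lower and 1081 higher, so falls outnumbered rises there too. The most rises were counted in the G2/M list and the most falls among the signalling genes upstream of the D-type cyclins, and the lists were not tested against each other.

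Among 7 other cyclins and CDKs, 6 were tested, 3 rose and 2 fell, with a median log2 fold change of 0.05. CDK1, the mitotic kinase that pairs with cyclins A2 and B1, had 190 ± 8.60 CPM in siControl and 247 ± 4.50 CPM in siZEB1, and rose with a log2 fold change of 0.38 ± 0.06 (adjusted p = 5.43e-05). CCNB2, the second B-type cyclin, rose by 0.36 ± 0.06 on the log2 scale (adjusted p = 1.42e-04). CCNB3 rose by 1.38 ± 0.37 from only 5 to 21 reads in the siControl cultures. CCNC, cyclin C of the Mediator kinase module, fell by 0.67 ± 0.08 on the log2 scale, and CCNF fell by 0.25. CDK3 was below the filter. CDK1 and CCNB2 thus stood higher in the same cultures in which CCNB1 was not called.

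Of 6 genes for the CDK-activating kinase, the CKS subunits and the kinase co-chaperone CDC37, CKS2 alone was called, at a log2 fold change of 0.19 (adjusted p = 0.0334). That call was lost in 4 of the 6 fits with 1 culture left out, where its adjusted p reached 0.192, and the list median was 0.05. Of the 7 CDK inhibitors of the CIP/KIP and INK4 families, 2 fell and 1 rose, with a median of 0.15. CDKN1B, which encodes p27Kip1, an inhibitor of cyclin E and CDK2 complexes, was at 127 ± 6.03 CPM in siControl and 82.2 ± 1.16 CPM in siZEB1, and fell by 0.63 ± 0.06 on the log2 scale (adjusted p = 5.53e-07). CDKN1C, its relative p57Kip2, fell by 1.38 ± 0.14, from 9.41 ± 0.519 to 3.61 ± 0.416 CPM. CDKN2A, whose INK4a product binds CDK4 and CDK6, rose by 0.36 ± 0.09. CDKN1A, which encodes p21Cip1, was not called, with an adjusted p of 0.193 and a log2 value of -0.11 ± 0.07.

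The RB and E2F list holds substrates of cyclin D kinases and transcription factors of both G1/S and G2/M genes. Of its 18 tested genes, 4 rose, 2 fell and 12 did not pass the test (33.3% called, beside 40.2% of all genes). The median was 0.03, and LIN37 was below the filter. RB1, the main substrate of cyclin D kinases, was at 81.5 ± 8.59 CPM in siControl and 82.4 ± 7.62 CPM in siZEB1 and was not called (adjusted p = 0.906). Its relative RBL1 rose by 0.38 ± 0.08 on the log2 scale, E2F1, an activator of S-phase genes, rose by 0.28 ± 0.07, and LIN52, a subunit of the MuvB core, rose by 0.59 ± 0.09. E2F5, a repressor E2F, fell by 0.76 ± 0.09, and MYBL2, which joins MuvB at G2/M genes, fell by 0.41 ± 0.07. Of 5 CDK phosphatases and inhibitory kinases, CDC25A, which removes inhibitory phosphates from CDK2, rose by 0.44 ± 0.05, WEE1, which adds them, rose by 0.37 ± 0.06, and CDC25B fell by 0.23 ± 0.06, with a list median of -0.03. Of 23 genes of cyclin degradation, 3 rose and 4 fell (30.4% called, median -0.0030). CUL4B, a scaffold of CRL4 ligases, rose by 0.48 ± 0.06, BTRC, an adaptor of SCF ligases, fell by 0.80 ± 0.07, CDC27, a subunit of the anaphase-promoting complex, fell by 0.59 ± 0.07, and UBE2C, its ubiquitin-conjugating enzyme, fell by 0.39 ± 0.06.

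Genes known to be expressed at G1/S and at G2/M formed separate lists, drawn up with earlier results of these data known. Over all genes tested, 40.2% were called. Of 20 G1/S genes, 6 rose and 1 fell (35% called), with a median log2 fold change of 0.07. PCNA, the sliding clamp of DNA replication, was at 406 ± 2.82 CPM in siControl and 573 ± 17.1 CPM in siZEB1, a rise of 0.50 ± 0.05 on the log2 scale (adjusted p = 7.88e-07). CDT1, a licensing factor, rose by 0.42 ± 0.07 and CHAF1A, a histone chaperone subunit, by 0.28 ± 0.07, whereas POLA1, the catalytic subunit of DNA polymerase alpha, fell by 0.57 ± 0.08. Of the 20 genes of the G2/M list, 19 were tested, 13 rose and none fell (68.4% called), with a median of 0.22. Genes of this phase placed in other lists went both ways: CDK1 and CCNB2 rose, while UBE2C, CDC25B and CCNF fell. NUSAP1 was below the filter. A protein-coding model outside the listed genes, AC087721.2, shares 62.2% of the NUSAP1 exonic bases on the same strand, so reads could be split between them. BIRC5, which encodes survivin, had 134 ± 6.35 CPM in siControl and 217 ± 8.0 CPM in siZEB1 and rose by 0.70 ± 0.06. ECT2, a guanine nucleotide exchange factor of cytokinesis, rose by 0.46 ± 0.08, AURKB, the kinase of the same complex as survivin, rose by 0.44 ± 0.07, and UBE2S, an enzyme of the anaphase-promoting complex, rose by 0.38 ± 0.07. MKI67, the proliferation marker, was at 754 ± 57.0 CPM in siControl and 697 ± 50.1 CPM in siZEB1 and was not called (log2 fold change -0.11 ± 0.06, adjusted p = 0.177). It was called lower without siControl replicate 3, at -0.17 with an adjusted p of 0.0244, and the G2/M list then had 1 fall.

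Of 20 genes that act on the transcription of D-type cyclins, 7 fell and 2 rose (45.0% called), with a median of -0.07. No rise was left without siControl replicate 2, siZEB1 replicate 1 or siZEB1 replicate 2, and 1 was left without siControl replicate 1 or 3, with DESeq2, with library size only or with no filter on low counts. MYC was at 519 ± 9.29 CPM in siControl and 332 ± 10.9 CPM in siZEB1, and fell by 0.64 ± 0.05 on the log2 scale (adjusted p = 5.47e-08), a change of about the size of that of CCND1. EGFR, a growth factor receptor, fell by 0.96 ± 0.09, ETV5, an ETS factor downstream of growth factor signalling, fell by 0.58 ± 0.06, and JUN, a subunit of AP-1, fell by 0.36 ± 0.07. Whether any of these differences is linked to those of the cyclins was not tested.

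**Figure D5:**
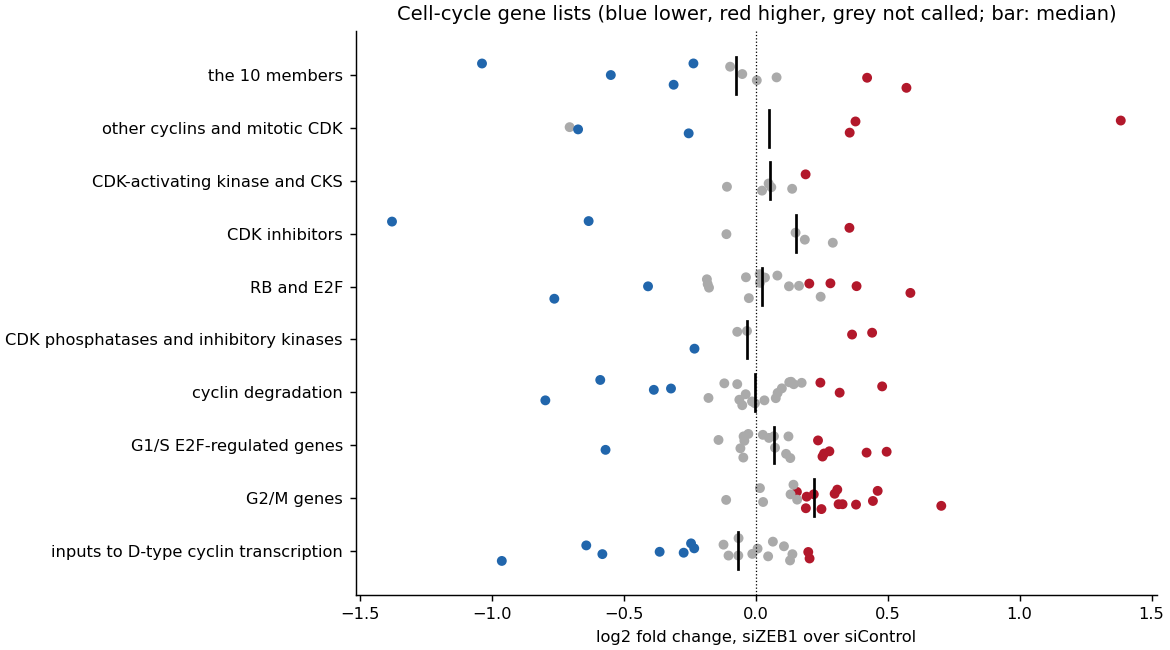
Log2 fold change of siZEB1 over siControl for the 10 cyclins and CDKs and for each tested gene of the 9 cell-cycle lists, 1 dot per gene, in blue where it fell, red where it rose and grey where it was not called, with a vertical bar at the list's median. All genes of the G2/M list but MKI67 lie to the right of 0, with a median of 0.22. The leftmost of the genes that act on D-type cyclin transcription is EGFR, at -0.96.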

How the data were processed

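The members and gene lists were chosen with earlier results of these data known. The authors deposited a table of raw counts of reads per gene for each culture. Per the submitters' processing notes, Trimmomatic, HISAT2, SAMtools and featureCounts were used with build hg38. Versions, annotation and strand setting are not given in the sources used here, so genes that overlap on opposite strands may share reads. The labels number 3 cultures per group without saying whether they were grown separately, and the study's methods call the sequenced samples biological replicates. P-values measure the spread between these samples. Replicates differed by 2.26 to 9.50 times sampling noise (chi-square over degrees of freedom), so none is a copy.

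Genes were kept by filterByExpr, scaled by TMM and tested in R 4.3.3 with edgeR 4.0.16 (quasi-likelihood, two-sided, no covariates), with Benjamini-Hochberg adjustment over 14996 genes. The biological coefficient of variation was 6.58%, and counts per culture were 19040636 to 22357633. SE is the absolute log2 fold change over the square root of F. Coordinates and exon lengths came from GENCODE 29 (31059 of 32029 identifiers matched), and promoters from RefSeq. Ratios used scipy 1.17.1. All 10 members, ZEB1, CDK1, CDKN1A, CDKN1B, RB1, E2F1, MYC, MKI67 and PCNA were named whatever their value, besides up to 4 called genes per cell-cycle list with the largest change. CCNF, and the cell type markers given by name, were named after their values were seen. Alternatives were DESeq2 1.42.0, other size factors, other count filters (none, or at least 10 counts in every culture), a replicate block, other thresholds and leaving out each culture.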

Additional observations from a re-analysis of the deposited data

How the results depend on the processing

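The calls of CCND1, CCND3, CCNE1, CDK2 and CDK6 were kept with DESeq2, with median-of-ratios or library size scaling, under both other count filters, with a replicate block and without each culture in turn, and CCNA2, CCNB1 and CDK4 were called in none of these. CCND2 was called in all of them except 2. Same-numbered cultures did not deviate together (r = -0.05, -0.09 and -0.20). These correlations gave no sign of pairing but cannot show how the cultures were handled. With the replicate number as a block the log2 fold change of CCND2 was -0.23 with an adjusted p of 0.0502. With 1 culture left out it ranged from -0.32 to -0.17, and the call was lost without siZEB1 replicate 1. CCNE2, at 0.00, turned to -0.0039 with library size only and to -0.0004 with no filter, and ranged from -0.14 to 0.16 with 1 culture left out. RB1 ranged from -0.0583 to 0.0937 and the difference between the groups in the log2 ratio of CCND2 to CCND3 from -0.0174 to 0.15, turning below 0 without siControl replicate 2. A rule of 1.5-fold with an unadjusted p under 0.05 called 1402 genes lower and 1081 higher, among them 1 member lower and 0 higher and 8 cell-cycle list genes lower and 3 higher. At an unadjusted p under 0.001 these counts were 1004 and 678, 1 and 0, and 8 and 2. The block called 2679 genes lower and 2289 higher, and CKS2 was not called with it (adjusted p = 0.105). The 2 rises among the genes that act on D-type cyclin transcription became 1 with DESeq2, with library size only and with no filter, and 0 with the block. No setting moved the median of all genes by 0.1. CCNE2 rests on 62 to 102 reads per culture, and differences smaller than its interval were not detectable at this depth.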
